A study of Homo sapiens with 3 samples.

Results

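Vesicle exocytosis genes are those whose products dock, prime and fuse secretory and synaptic vesicles. They were taken as all gene rows named as synaptotagmins (SYT), syntaxins (STX), syntaxin-binding proteins (STXBP), vesicle-associated membrane proteins (VAMP), SNAP23, SNAP25, SNAP29, SNAP47 or SNAP91, synapsins (SYN), synaptophysin (SYP), SV2 proteins, complexins (CPLX), RAB3 proteins or RIM proteins (RIMS). This gave 69 of 32738 gene rows. A member counted as measured at a level of 2 or more CPM, the share of a library's UMIs (distinct RNA molecules) scaled so that all genes sum to 1e6, in the cells of any library, which held for 52 of the 69, against 11956 of all rows. The cells were Kelly cells, an established human neuroblastoma line known for amplified MYCN and a mutated, active ALK kinase. TAE684 is an ALK inhibitor. The sensitive culture was kept in DMSO, the vehicle, the intermediate resistant culture in 500 nM TAE684 and the fully resistant culture in 1 µM TAE684, all in RPMI-1640 medium with fetal bovine serum and antibiotics. Each state was 1 droplet library of the same line, and the labels do not say how many cultures lie behind it, so no difference has a replicate check, and resistance, dose and culture cannot be told apart.

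In a neuron or neuroendocrine cell, a vesicle VAMP protein zips together with a plasma membrane syntaxin and a SNAP protein, and this SNARE complex pulls the membranes together. Syntaxin-binding proteins hold the syntaxin, complexins clamp the partly zipped complex, and a calcium-binding synaptotagmin triggers the last step. RAB3 proteins on the vesicle and RIM proteins at the release site bring the vesicle into place. Neuroblastoma arises from the sympathoadrenal lineage, whose cells store catecholamines and peptides in dense-core granules and release them through this machinery. Other syntaxins and VAMP proteins serve fusion in the Golgi, endosomes and endoplasmic reticulum of every cell.

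The libraries held 5415 sensitive, 6288 intermediate resistant and 6331 fully resistant cells with at least 5000 UMIs, and 95119772, 102449567 and 106163582 UMIs in them. The median cell had between 15660.5 and 16014 UMIs and between 3413 and 3633 genes. Pairs of libraries shared 38 to 62 cell barcodes, where unrelated draws of barcodes would share 46.2 to 54.0. All 10 neuroblastoma markers reached a CPM of 2 in every library, with summed levels of 2441 to 4212. The fibroblast list summed to 14.8 to 19.8, the immune list to 1.59 to 2.60, and the endothelial and epithelial lists to less than 1 each. Of the Schwann or glial markers, SOX10 had a CPM of 0, 0 and 0.0188 from sensitive to fully resistant cells. Whether any of this has a part in the results below was not tested.

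The members took 1063 CPM in total in sensitive, 1178 in intermediate resistant and 1202 in fully resistant cells. Without SYT1 these sums were 941, 963 and 904, so the fully resistant total was the highest with SYT1 and the lowest without it. SYT1 and VAMP2, the neuronal vesicle VAMP, were the first and second member in all 3 libraries. SYT1 held 24.7% of the members' UMIs in the fully resistant library, 18.2% in the intermediate resistant and 11.5% in the sensitive one. UMIs tag each molecule once at its 3' end and carry no length term. The efficiency of tagging still differs between genes, so the order of genes is a description.

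Paralogs of the same family differed in opposite directions between the states. A member entered a comparison if its CPM reached 2 in either library, and a 2-fold difference made it higher or lower. Between fully resistant and sensitive cells, 8 of 51 members were higher in the former (15.7%) and 7 lower (13.7%), beside 8.01% and 8.68% of all 11809 genes entered. Members above a ratio of 1 numbered 29 and those below it 22. Between intermediate resistant and sensitive cells, 4 of 51 members were higher and 2 lower, against 3.42% and 5.80% of 11541 genes. Between fully and intermediate resistant cells, 2 of 51 were higher and 4 lower, against 6.70% and 5.02% of 11632 genes. The members' median log2 ratio was 0.06, 0.02 and -0.02 in these 3 comparisons, beside 0.07, -0.08 and 0.14 for all genes tested. TMM scaling moved the last all-gene median by -0.14, and it turned the members' first median to -0.03, so no direction is given for the family as a whole. A scaling shifts all log2 ratios of a comparison by the same amount. The largest shift was this -0.14, too small to reverse a member past the ratio. The comparisons share libraries and are not independent of each other.

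**Figure D1:**
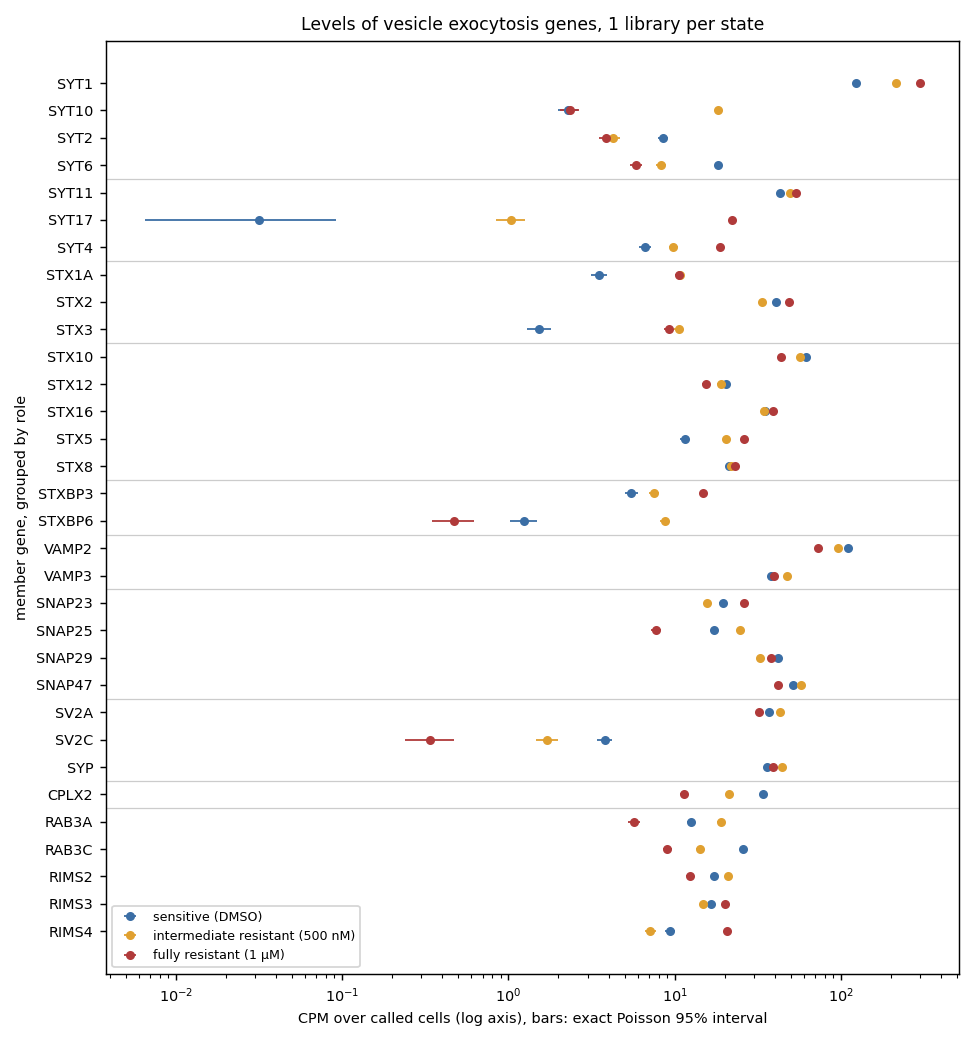
Level of members that either reached a CPM of 20 or differed at least 2-fold, as CPM on a log axis, with exact Poisson 95% intervals (counting error only), for the sensitive, intermediate resistant and fully resistant libraries. Points lie close together for most rows, while SYT17, SV2C, STXBP6, SYT10 and STX3 spread widest.

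**Figure D2:**
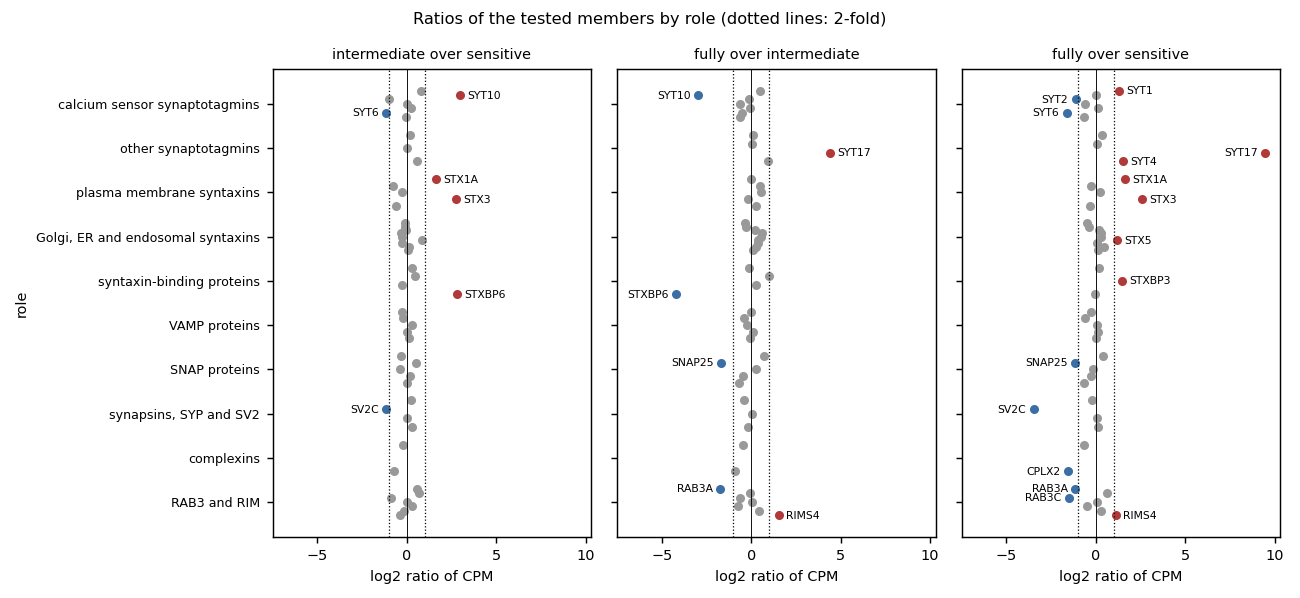
Log2 ratio of CPM for each tested member, by role, in the 3 comparisons; red points are at least 2-fold higher, blue at least 2-fold lower, grey neither. VAMP proteins hold no coloured point in any panel, and SYT17 lies farthest out at a log2 ratio of 9.45.

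Promoter sequences are shown for 6 members with a single start in RefSeq's table whose levels differed between the states: SYT10, high in the intermediate library alone, STX1A and STX3, which were higher in both resistant libraries, and CPLX2, RAB3C and SV2C, which stepped down and all lie on chromosome 5. RefSeq (GRCh38.p14) gave windows for 55 of the 69 members. Each run is the 250 bases before the start, 5′ to 3′ on the strand of the gene. Capitals mark matches, on either strand, to the GC box CCGCCC, the E-boxes CAGATG and CAGCTG, the cyclic AMP element core TGACG, the left and right parts of the REST site, TTCAGCACC and GGACAGC, or TATAAA. The CAGCTG letters read the same on both strands, and no motif letters contain another's.
SYT10, chr12:33439820-33440069, minus strand: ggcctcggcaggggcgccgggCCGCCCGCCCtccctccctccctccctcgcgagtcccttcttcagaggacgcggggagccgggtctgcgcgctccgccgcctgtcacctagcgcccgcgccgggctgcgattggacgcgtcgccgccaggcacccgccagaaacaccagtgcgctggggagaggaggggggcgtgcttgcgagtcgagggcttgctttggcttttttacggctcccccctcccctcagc
STX1A, chr7:73719670-73719919, minus strand: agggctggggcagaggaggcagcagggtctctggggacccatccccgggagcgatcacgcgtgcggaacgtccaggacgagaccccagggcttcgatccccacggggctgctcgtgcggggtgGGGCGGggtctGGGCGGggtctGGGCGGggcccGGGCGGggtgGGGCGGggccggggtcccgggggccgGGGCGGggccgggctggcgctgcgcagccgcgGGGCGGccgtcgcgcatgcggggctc
STX3, chr11:59755126-59755375, plus strand: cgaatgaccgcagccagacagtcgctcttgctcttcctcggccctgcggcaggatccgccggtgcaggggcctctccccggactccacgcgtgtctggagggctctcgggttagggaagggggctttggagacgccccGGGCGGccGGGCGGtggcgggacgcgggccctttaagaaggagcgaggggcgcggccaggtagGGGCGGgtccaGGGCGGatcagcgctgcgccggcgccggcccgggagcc
CPLX2, chr5:175796283-175796532, plus strand: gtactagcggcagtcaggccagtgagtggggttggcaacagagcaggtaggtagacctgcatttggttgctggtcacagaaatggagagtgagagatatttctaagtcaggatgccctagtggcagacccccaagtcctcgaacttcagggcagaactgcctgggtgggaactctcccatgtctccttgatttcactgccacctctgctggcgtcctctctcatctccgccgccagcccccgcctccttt
RAB3C, chr5:58582825-58583074, plus strand: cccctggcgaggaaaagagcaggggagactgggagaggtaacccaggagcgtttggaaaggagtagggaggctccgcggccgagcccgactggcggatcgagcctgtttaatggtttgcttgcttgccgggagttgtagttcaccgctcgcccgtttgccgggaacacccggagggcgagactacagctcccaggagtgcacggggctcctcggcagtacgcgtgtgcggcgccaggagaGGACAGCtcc
SV2C, chr5:76083133-76083382, plus strand: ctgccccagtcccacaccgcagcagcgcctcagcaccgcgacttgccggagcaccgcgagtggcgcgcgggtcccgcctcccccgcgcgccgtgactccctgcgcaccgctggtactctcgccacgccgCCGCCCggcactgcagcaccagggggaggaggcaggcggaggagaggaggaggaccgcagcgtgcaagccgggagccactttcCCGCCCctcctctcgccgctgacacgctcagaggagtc
STX1A and STX3, which were both lowest in the sensitive library, held 7 and 4 GC box matches, and SYT10 and SV2C held 2 each. The GC box occurs in 42.6% of all 35116 windows of this length. It was found in any window of 42 of the 55 members, so it is not particular to these genes. The former is a share of windows and the latter a count of genes, which had 84 windows, so the 2 are not compared. RAB3C held the right part of the REST site once, a match found in 4.76% of windows, and CPLX2 held none of the letters searched. None of the 6 held CAGATG or CAGCTG, found in 12.2% and 14.0% of windows, or TGACG, found in 21.2%, or TATAAA and TTCAGCACC, found in 10.7% and 0.288%. The GC content ran from 56.8% in CPLX2 to 80.8% in STX1A, beside a median of 58% over all windows and 66% over those of the members. These matches describe letters in a window, and the 3' counts do not say which start a transcript used.

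Synaptotagmins are the vesicle calcium sensors and their relatives. The widest ratio among them was that of SYT17, which passed the limit only through the fully resistant library and so had to differ. SYT1, the fast sensor of synaptic and granule release, had a CPM of 122 (95% interval 120 to 125) in sensitive, 214 (211 to 217) in intermediate resistant and 297 (294 to 301) in fully resistant cells. The levels climbed from state to state with intervals well apart, giving 2.43-fold (2.38 to 2.48) between the ends. SYT17, an atypical synaptotagmin, had 3, 106 and 2346 UMIs in the libraries from sensitive to fully resistant. Its CPM was thus 0.0315 (0.0065 to 0.0922), 1.03 (0.847 to 1.25) and 22.1 (21.2 to 23.01). It was all but absent in sensitive cells, and the ratio of 701 between the ends has a counting interval of 239 to 3400.0. Between fully and intermediate resistant cells it was 21.4-fold higher (17.6 to 26.2). SYT10, linked in neurons to the release of IGF1-containing vesicles, was instead high in the middle state alone, at a CPM of 18.3 (17.4 to 19.1) against 2.29 (1.998 to 2.62) and 2.34 (2.05 to 2.65) in sensitive and fully resistant cells. The last pair overlaps, and the intermediate level was 7.97-fold (6.92 to 9.21) and 7.82-fold (6.84 to 8.96) above them.

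SYT4, which modulates release from dense-core granules, had a CPM of 6.61, 9.78 and 18.8 from sensitive to fully resistant cells and was 2.84-fold higher at the end (2.60 to 3.11). SYT6 ran the other way, at 18.2, 8.31 and 5.84, and was 2.19-fold lower (2.02 to 2.38) in intermediate and 3.12-fold lower (2.84 to 3.42) in fully resistant cells than in sensitive ones. SYT2, a close paralog of SYT1, had a CPM of 8.46, 4.26 and 3.85. The intervals of both resistant libraries overlap, and the fully resistant level was 2.20-fold lower than the sensitive one (1.95 to 2.48). SYT11, which does not bind calcium, differed by 1.25-fold at most, at 42.9, 49.3 and 53.6. Of the 7 tested calcium sensor synaptotagmins, 1 was higher and 2 lower in fully resistant against sensitive cells, with a median log2 ratio of -0.62. Of the 4 other synaptotagmins tested, 2 were higher and 0 lower, with a median of 0.91. Of all genes, 8.01% were higher and 8.68% lower, and counts this small separate neither group from other genes. SYT17 was among the 2 and entered only through the fully resistant library.

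Plasma membrane syntaxins, the target-side SNARE proteins, included 2 genes, of 5 tested, that were higher in both resistant libraries. Of all genes, 8.01% were higher in fully resistant and 3.42% in intermediate resistant than in sensitive cells. The share of all genes higher in both is not given here, and a count of 2 does not separate this group from other genes. STX3, the syntaxin of apical and granule secretion, had a CPM of 1.53 (1.30 to 1.81) in sensitive, 10.6 (9.94 to 11.2) in intermediate resistant and 9.21 (8.64 to 9.81) in fully resistant cells. STX1A, the neuronal release syntaxin, had 3.50 (3.13 to 3.90), 10.7 (10.1 to 11.4) and 10.7 (10.1 to 11.3). For both genes the sensitive library stood alone at the bottom. In intermediate resistant cells STX3 was 6.88-fold (5.78 to 8.24) and STX1A 3.06-fold (2.70 to 3.46) above sensitive cells. In fully resistant cells the ratios to sensitive cells were 6.00 (5.04 to 7.19) and 3.05 (2.70 to 3.46). STX2 ranged only from 33.3 to 48.4, and STX4 from 6.27 to 9.46.

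Of 9 tested syntaxins of internal membranes, STX5 alone reached 2-fold in any comparison, 1 of 9 being close to the 8.01% of all genes that were higher in fully resistant than in sensitive cells. STX5, the Golgi syntaxin for traffic from the endoplasmic reticulum, had a CPM of 11.5 (10.8 to 12.2), 20.5 (19.6 to 21.4) and 26.1 (25.2 to 27.1) and was 2.27-fold higher (2.12 to 2.44) in fully resistant than in sensitive cells. STX10, the member of this group with the highest level, had a CPM of 61.2, 56.7 and 43.6. STX8 had 21.2, 21.9 and 22.99, and its neighbouring libraries in that order have overlapping intervals. STX12 and STX16 ranged from 15.3 to 20.3 and from 34.2 to 38.9.

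Syntaxin-binding proteins differed in different states. STXBP3, a widely expressed one, had a CPM of 5.49, 7.52 and 14.8 and was 2.71-fold higher (2.45 to 2.99) in fully resistant than in sensitive cells. STXBP6, also called amisyn, a syntaxin binder that hinders SNARE assembly, had 1.24 (1.03 to 1.49), 8.70 (8.14 to 9.29) and 0.471 (0.350 to 0.621). Like SYT10, it was high in the intermediate library alone, 7.01-fold above sensitive (5.78 to 8.57) and 18.5-fold above fully resistant cells (13.9 to 25.1).

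VAMP and SNAP genes were grouped by name, with SNAP91, which is not a SNARE protein, among the latter. Between fully resistant and sensitive cells, 0 of 5 tested VAMP genes and 1 of 5 SNAP genes reached 2-fold. Among all genes, 8.01% were higher and 8.68% lower, so counts this small separate neither group from other genes. VAMP2, the partner of SNAP25 in regulated release, had a CPM of 111, 95.7 and 72.3, so that the fully resistant level was 1.53-fold lower (1.49 to 1.58). VAMP3, its widely expressed paralog, had 37.8, 47.04 and 39.7. SNAP25, the neuronal target SNARE, had 17.3 (16.5 to 18.1), 24.7 (23.8 to 25.7) and 7.73 (7.21 to 8.28). The fully resistant library was the lowest of the 3, 2.23-fold below sensitive (2.05 to 2.43) and 3.20-fold below intermediate resistant cells (2.96 to 3.46). SNAP23, the form used by most non-neuronal cells, had the opposite order, at 19.4, 15.7 and 26.04. SNAP25 thus exceeded SNAP23 in the intermediate resistant library only. SNAP29 ranged from 32.3 to 41.9 and SNAP47 from 41.5 to 57.1, with no ratio of 2.

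Of the complexins, 1 of 2 tested, and of the RAB3 and RIM genes, 2 of 7 tested, were at least 2-fold lower in fully resistant than in sensitive cells, and 1 of the latter was higher. Of all genes, 8.68% were lower and 8.01% higher, and counts this small do not separate these groups from other genes. CPLX2, the clamp protein with the higher sensitive level, had a CPM of 33.9 (32.8 to 35.1), 21.1 (20.2 to 22.0) and 11.4 (10.7 to 12.02), a 2.99-fold lower level (2.80 to 3.20) at the end. RAB3C had 25.9 (24.9 to 26.9), 14.1 (13.4 to 14.9) and 9.005 (8.44 to 9.59), 2.88-fold lower (2.67 to 3.10). Both stepped down with intervals apart at each step. CPLX1 had 19.2, 16.8 and 12.1 and did not reach 2-fold. RAB3A, the main vesicle RAB of neurons, had its highest level in the middle, at 12.6 (11.9 to 13.3), 18.9 (18.1 to 19.8) and 5.68 (5.24 to 6.15). Fully resistant cells were 2.21-fold below sensitive (2.002 to 2.44) and 3.33-fold below intermediate resistant cells (3.04 to 3.65), the same order as for SNAP25. Among RIM genes, RIMS4 was 2.20-fold higher (2.03 to 2.38) in fully resistant than in sensitive cells, at 20.5 against 9.34, with 7.14 in intermediate resistant cells. RIMS2 had 17.3, 21.0 and 12.4 and RIMS3 16.5, 14.9 and 20.1.

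Vesicle membrane markers used to identify neuroendocrine cells differed by 1.35-fold at most. SYP had a CPM of 35.8, 44.1 and 38.9, and SV2A had 37.0, 43.0 and 32.0. SV2C, a paralog of SV2A with a narrow distribution in the brain, had 3.78 (3.404 to 4.197), 1.71 (1.46 to 1.98) and 0.339 (0.238 to 0.469). It was 11.2-fold lower (7.91 to 16.2) in fully resistant than in sensitive cells and 2.22-fold lower (1.84 to 2.67) in intermediate resistant cells. No row named SYN2 was used here.

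Across the 52 measured members, 7 stepped down from sensitive through intermediate to fully resistant cells with no overlap of neighbouring intervals (13.5%), and 6 stepped up (11.5%), beside 8.81% and 11.2% of all 11956 measured genes. Another 10 had their highest level in the intermediate resistant library, apart from the next (19.2%), and 11 their lowest (21.2%), beside 8.46% and 23.2% of all measured genes. In the fully resistant library 17 had their lowest level in this way (32.7%) and 14 their highest (26.9%), beside 17.9% and 33.7%. In the sensitive library 11 had their lowest (21.2%) and 11 their highest (21.2%), beside 19.1% and 23.7%. These patterns overlap with those above. The 17 members below the limit reached at most a CPM of 1.36, in STXBP2, and SYT8 had no UMI in any library. Next to the limit on the inside lay SYT3 at 2.85 and SNAP91 at 3.26, and on the outside STXBP5 at 1.10 and STXBP2. SYT17, STXBP6 and SV2C each passed the limit only through the library in which they were high, and a member that passes in this way had to differ. The 19 measured members with a CPM under 20 and no 2-fold ratio ranged from 1.81 to 19.2 CPM, and their ratios to sensitive cells from 0.592 to 1.61. The others below the limit were SYT9, SYT12, SYT13, SYT15, SYT16, STX11, STX19, SV2B, SYN3, CPLX3, CPLX4, RIMS1, VAMP5 and VAMP8.

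Most chromosomal neighbourhoods of the changed members did not move with them. For each member the median log2 ratio of the 20 nearest measured genes, 10 on each side in RefSeq's gene order, was set beside its own. SYT1 (chromosome 12) had a log2 ratio of 1.28 for fully resistant over sensitive cells, and its neighbours had a median of 0.87. RIMS4 (chromosome 20) had 1.14 beside 0.76. Between fully and intermediate resistant cells SYT1 and its neighbours both stood at 0.47. For both genes the part of the neighbourhood in the result was not tested. The other called members lay in neighbourhoods with a median between -0.12, at SYT4, and 0.44, at SV2C, and the latter's own log2 ratio was -3.48. STX3 had 2.59 beside 0.12, STX1A 1.61 beside 0.13, SNAP25 -1.16 beside 0.11 and SYT17 9.45 beside 0.25. The 3 members on chromosome 5 lay in neighbourhoods at 0.01 (CPLX2), -0.03 (RAB3C) and 0.44 (SV2C).

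**Figure D3:**
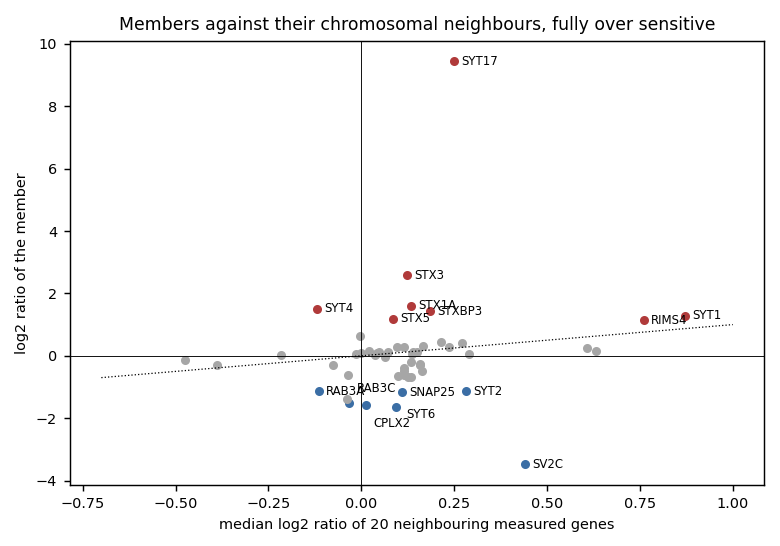
Log2 ratio of each measured member for fully resistant over sensitive cells (vertical axis) against the median log2 ratio of its 20 nearest measured genes (horizontal axis); red points are at least 2-fold higher, blue at least 2-fold lower, grey neither or not tested, and the dotted line marks equality. SYT1 and RIMS4 lie nearest the line among the red points, at neighbour medians of 0.87 and 0.76.

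The share of single cells with a SYT1 UMI differed with the level. After each cell was thinned to 5000 UMIs, the share of cells with a SYT1 UMI was 43.4% in the sensitive library (42.1 to 44.7, exact Clopper-Pearson 95%), 59.0% at the intermediate state (57.7 to 60.2) and 68.9% at full resistance (67.7 to 70.0). Without thinning these shares were 78.0%, 86.9% and 93.3%. No cell type lacking SYT1 was present to give a background share. Free RNA, estimated from barcodes without a cell (median 31 to 45 UMIs), would alone put a SYT1 UMI in 0.0612% to 0.26% of thinned cells. Thinned cells with 5 or more SYT1 UMIs made up 0.259%, 2.51% and 5.39% of the 3 libraries in that order. The same mean spread evenly over cells would have given shares of 46.6%, 66.7% and 78.1%, above each observed share. The variance of SYT1 UMIs over their mean was 1.22, 1.59 and 1.72, a ratio that grows with the level of a gene, so SYT1 is not ranked against less abundant members by it.

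**Figure D4:**
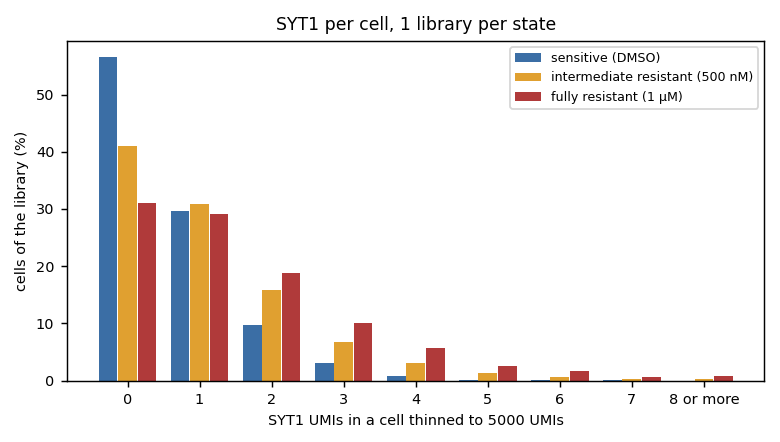
Share of cells, in percent of each library, by the number of SYT1 UMIs in a cell thinned to 5000 UMIs; bars give the sensitive, intermediate resistant and fully resistant libraries. Cells without a SYT1 UMI made up 56.6%, 41.0% and 31.1% of the libraries in that order.

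Members that were high in 1 state were seen in few of that library's thinned cells. SYT17 was seen in 10.1% (9.41 to 10.9) of thinned fully resistant cells. The share was 0.493% at the intermediate state, and SYT17 was seen in 0 of 5415 sensitive cells, which allows a share of up to 0.0681%. SYT10 was seen in 7.92% (7.26 to 8.61) of intermediate resistant cells, against 1.37% and 1.01% in sensitive and fully resistant cells. STXBP6 was seen in 4.02% (3.55 to 4.54) of intermediate resistant cells, and in 0.572% and 0.221% of the others. SNAP25 was seen in 7.28%, 11.6% and 3.70% of cells from the sensitive to the fully resistant library. Free RNA would give at most 0.0474% for each of these 4 genes. In unthinned cells, SYT17 was seen in 28.3% of fully resistant cells, SYT10 and STXBP6 in 23.4% and 12.5% of intermediate resistant cells, and SNAP25 in 24.5%, 30.5% and 11.6%. At these depths a cell without a UMI cannot be read as a cell without the transcript, and the shares do not show how evenly a transcript was spread.

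Cells of the fully resistant library that carried NEUROD1, a proneural transcription factor, had more SYT1. This split was chosen after its values were seen, and its values are descriptions within 1 library. Among thinned cells, 1737 had a NEUROD1 UMI and 4594 had none. SYT1 had a CPM of 441 in the former and 252 in the latter, a ratio of 1.75 (1.68 to 1.83). CPLX2, lower in this library as a whole, had 20.2 against 6.75, a ratio of 2.99 (2.39 to 3.73). CPLX1 and STX1A had ratios of 1.59 (1.28 to 1.96) and 1.55 (1.23 to 1.95), while RIMS3 was 1.54-fold lower (1.26 to 1.88) in cells with NEUROD1. In the cells with 2 or more NEUROD1 UMIs against those with 0, a setting added later, the RIMS3 ratio was 0.388, against 0.651 here. Of 33 members with a CPM of at least 10 on either side, 4 were thus at least 1.5-fold higher and 1 lower, against 2.56% and 1.07% of 7395 genes.

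Split by TH, the first enzyme of catecholamine synthesis, the same library gave the reverse direction for SYT1, CPLX2 and RIMS3. SYT1 was 1.63-fold lower (1.56 to 1.70) and CPLX2 2.06-fold lower (1.61 to 2.66) in the 2688 cells with a TH UMI than in the 3643 without, and RIMS3 was 1.60-fold higher (1.37 to 1.87). CPLX1 and STX1A had ratios of 0.851 (0.686 to 1.05) and 1.08 (0.859 to 1.34), both under 1.5-fold. STXBP4 was the third lower member of 31, against 1.53% of 7322 genes lower and 1.13% higher. In intermediate resistant cells with a UMI of the neuropeptide gene CARTPT, 2 of 35 members were lower, SYT6 (1.99-fold, 1.48 to 2.71) and RIMS3 (1.54-fold, 1.25 to 1.93), and 0 higher, against 1.51% and 0.777% of 7079 genes. In sensitive cells split by VIM, an intermediate filament gene, 0 of 31 members were past 1.5-fold in either direction, against 0.507% of 7291 genes higher and 0.590% lower.

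RAB3A and SYT2 differed with the cell cycle in all 3 libraries. Each library's cells were divided at the median of the share of UMIs from genes of S, G2 and M phase. This comparison was chosen after its values were seen. RAB3A was higher in the cells with fewer cycle transcripts, at a CPM of 15.8 against 9.57 in sensitive, 25.9 against 12.5 in intermediate resistant and 8.22 against 3.47 in fully resistant cells. The ratios were 1.65 (1.47 to 1.86), 2.08 (1.89 to 2.29) and 2.37 (1.99 to 2.82), the same direction in 3 of 3 libraries. SYT2 had the opposite direction, 1.88-fold (1.62 to 2.19), 1.86-fold (1.52 to 2.29) and 1.57-fold (1.27 to 1.93) higher in the cells with more cycle transcripts. Of 47 members tested here, RAB3A was the 1 that reached 1.5-fold in all 3 libraries toward fewer cycle transcripts and SYT2 the 1 toward more, against 0.205% and 2.23% of 10257 genes. For SYT2, 1 of 47 is close to the share of all genes, and a count of 1 gene does not set the members apart. When cells thinned to 5000 UMIs were divided by the G2 and M phase list alone, a setting added later, the RAB3A ratios were 1.92, 2.11 and 2.02. By the S phase list alone they were 0.984, 1.31 and 1.27, so that the sensitive library no longer showed the difference. For SYT2 the ratio of fewer over more cycle transcripts was 0.432, 0.733 and 0.697 by the G2 and M phase list and 0.831, 0.627 and 0.610 by the S phase list.

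**Figure D5:**
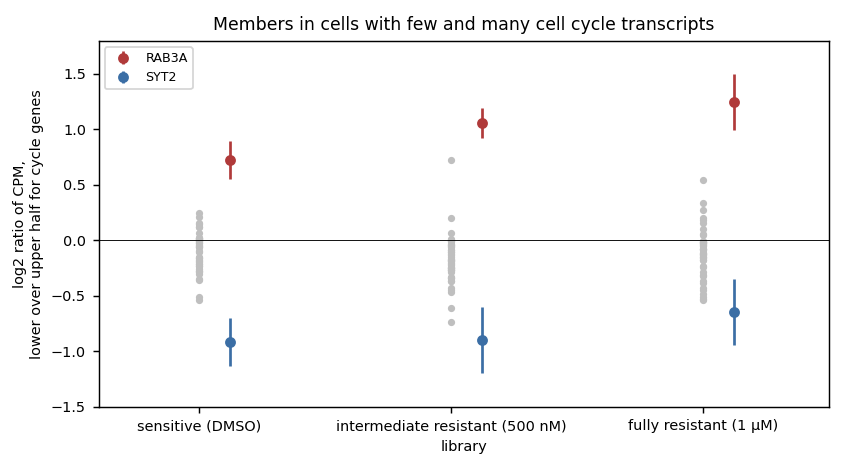
Log2 ratio of CPM in cells with fewer over cells with more S, G2 and M phase transcripts, for each of 47 members in each library; grey points are the other members, and RAB3A and SYT2 carry exact 95% counting intervals. RAB3A has the highest and SYT2 the lowest ratio of the 47 members in each library, although the SYT2 interval reaches other members.

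Other genes of the pathway, from 8 lists chosen for their function, are set beside the members. Of 94 such genes tested for fully resistant over sensitive cells, 10 were higher and 15 lower, beside 8.01% and 8.68% of all genes, with a median log2 ratio of -0.05. Between intermediate resistant and sensitive cells 9 of 90 were higher and 7 lower, beside 3.42% and 5.80% of all genes. Between the resistant libraries 8 of 93 were higher and 12 lower, beside 6.70% and 5.02%. RPH3A, rabphilin, an effector that binds RAB3A and SNAP25, had a CPM of 30.2 in sensitive, 3.38 in intermediate resistant and 0.0377 in fully resistant cells, the last from 4 UMIs, which gives a ratio 802-fold lower with a counting interval of 313 to 2944. CADPS, which primes dense-core granules for release, had 13.9, 10.4 and 0.443 and was 31.5-fold lower (23.5 to 43.0) in fully resistant than in sensitive cells. Of the RAB3 and RAB27 cycle genes, 2 of 11 were higher and 5 lower there, against the same 8.01% and 8.68% of all genes, and RAB3IP, an exchange factor linked to RAB8 and RAB3, was 2.27-fold higher (2.14 to 2.41). In the active zone scaffold list, 1 of 13 was higher and 2 were lower, PPFIA3 (2.82-fold) and RIMBP2 (3.42-fold), which tether release sites.

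Cargo and membrane genes of granules also differed in both directions. In the dense-core granule list, 4 of 11 were higher and 2 lower in fully resistant than in sensitive cells, beside 8.01% and 8.68% of all genes. CPE, a processing enzyme for prohormones, had a CPM of 18.8, 49.0 and 113 in the 3 states, and SCG2, a granin, 7.49, 10.0 and 24.2. CHGA, the main granin of chromaffin granules, had 705, 1286.5 and 214 instead, the same order of libraries as RAB3A and SNAP25. The monoamine loaders SLC18A2 and SLC18A1 had 40.2, 33.3 and 1.17, and 5.33, 17.5 and 2.06, and CYB561, a granule electron carrier, 167, 53.3 and 9.42. None of 9 exocyst and 13 endocytic recycling genes was past the ratio in either comparison with sensitive cells. Of 11 other Golgi and endoplasmic reticulum SNAREs, 1 was higher in fully resistant and 1 in intermediate resistant than in sensitive cells. All genes had shares of 8.01% and 3.42% there. The 1 in fully resistant cells was BET1L, 2.73-fold higher (2.45 to 3.04) than in sensitive cells.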

How the data were processed

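The authors deposited raw UMI counts per gene and barcode, as 1 integer matrix per library with 737280 barcodes, no normalization and no barcode filter, per the file headers. The tools bcl2fastq and Cell Ranger and the build hg19 are named, per the submitters' processing notes; versions are not given in the sources used here. The labels name 10x Genomics 3' v2 chemistry. Cells were barcodes with at least 5000 UMIs, at least 500 genes and at most 20% mitochondrially encoded UMIs, and doublets were kept. UMIs were summed per library and divided by its total (CPM, without a count model). Levels carry exact Poisson, ratios exact conditional Poisson and shares exact Clopper-Pearson 95% intervals, all for counting error only. Each group is 1 library, so p-values were not computed. Cells were also thinned to 5000 UMIs (0 left out), and free RNA was read from barcodes ranked 20000 to 60000 by UMIs. A gene at 0 UMIs was set to 3 UMIs in a ratio. TMM factors came from edgeR 4.0.16, other values from Python 3.11.15 with scipy 1.17.1. Alternatives were other scalings (TMM, median of ratios, totals without some gene classes), limits and cell sets. The divisions by phase list and by 2 NEUROD1 UMIs were added after seeing the data. The call rule was tested on simulated data. Members, lists and tests were chosen with earlier results of these data known. Members were named at a CPM of at least 20 in any library or a ratio of at least 2, and pathway genes at a ratio of at least 2 and a CPM of at least 10; exceptions (STXBP2, STXBP5, SYT3, SYT8, SNAP91, STX4, STXBP4, CPLX1) were named after their values were seen. RefSeq's tables (GRCh38.p14) served for gene order and promoters only, and no coordinate was moved between builds. No per-sample column was left unused (0 columns). Some members and markers are not reported here.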

Additional observations from a re-analysis of the deposited data

How the results depend on the processing

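Under 3 scalings and 5 other cell sets, 12 of 15 members at 2-fold between fully resistant and sensitive cells stayed there in every setting, as did 6 of 6 in each of the other comparisons. None of these reversed in the 5 other cell sets. The scalings shift all ratios of a comparison alike and by too little to reverse one. In the cells with fewer cycle transcripts, fully resistant over sensitive ratios fell short for RIMS4 (1.98), RAB3A (0.519) and SYT2 (0.511). Counts moved more with the limits. The share of all genes under each of the settings below is not given here. These counts therefore do not set the members apart from other genes. With no minimum CPM, fully resistant over sensitive cells had 14 members higher, intermediate resistant over sensitive cells 8 higher and 6 lower, and fully over intermediate resistant cells 6 higher and 8 lower; more genes are tested there by construction. At a ratio of 1.5 these counts were 12 lower in the first comparison, 8 higher and 7 lower in the second, and 6 higher and 10 lower in the third. In the first comparison both settings also had members in the other direction. Their counts are not given here, so no lean toward higher or lower is read from these. A minimum CPM of 10 left 1 member lower in intermediate resistant than in sensitive cells. In the third comparison, leaving mitochondrial and ribosomal protein genes out of the total gave 7 lower, and the cells with fewer cycle transcripts gave 4 higher; the cause was not tested. NEUROD1 splits at 2 or more UMIs, chosen after seeing the data, gave ratios of 2.17 for SYT1, 4.06 for CPLX2, 1.88 for CPLX1, 2.01 for STX1A and 0.388 for RIMS3, whose difference moved most. No paired analysis was possible because each group has 1 library and no test was run. Depth limits shares of cells more than levels: thinning to 10000 UMIs raised the SYT1 shares to 64.1%, 77.8% and 85.7%.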
